A study of Mus musculus with 6 samples.

Results

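The Krüppel-like factors (Klf) and the specificity proteins (Sp) are transcription factors that bind GC boxes and CACCC boxes in promoters and enhancers. This account follows the mRNAs of 10 of them, Klf3, Klf6, Klf7, Klf9, Klf10, Klf11, Klf13, Sp1, Sp3 and Sp4, among the 53379 genes in the deposited count tables. The 10 were taken as a list of gene symbols and found through the Ensembl gene identifiers in the tables. All 10 were present, and all passed the filter on low counts that left 16929 genes for testing.

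The libraries came from Min6, a mouse insulinoma cell line. In both groups the cells, at passage 31, were harvested after 30 h with 500 µM palmitic acid in 25 mM glucose, which the labels call glucolipotoxicity. One group holds 3 libraries of RNA brought down with an antibody against hnRNPK (hnRNPK IP), an RNA-binding protein whose KH domains prefer C-rich single-stranded RNA. The other holds 3 libraries of total RNA from the lysate, taken as a 10% input. Untreated cells and an immunoprecipitation with a control antibody were not analysed here, so RNA held by beads or antibody is counted with RNA held by hnRNPK.

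All family members share a block of C2H2 zinc fingers near the C-terminal end, which reads GC-rich DNA, and differ in the rest of the protein. Sp1, Sp3 and Sp4 carry glutamine-rich activating regions. Klf3 belongs to the branch that recruits the CtBP corepressors, Klf9, Klf10, Klf11 and Klf13 to the branch that binds the Sin3a corepressor, and Klf6 and Klf7 to a branch of activators. Klf11 is also known as a diabetes gene of the MODY class, and Sp1 acts at many beta cell promoters. The comparison asks which of these mRNAs were over- or under-represented in the hnRNPK IP relative to the total RNA.

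The libraries held 38764925 to 52735957 counts. Between them, TMM scaling factors of edgeR were 0.851 to 0.868 for the IP and 1.15 to 1.18 for total RNA. The 10 beta cell markers examined all had reads, and made up 0.703% to 0.930% of IP counts and 3.12% to 4.35% of total RNA counts. The lower IP share did not hold for each marker. In the test described below 5 were enriched and 5 depleted, against 28.9% and 33.6% of all tested genes. Of 6 markers of exocrine and duct cells, Prss2, Cpa1 and Pnlip had no read in any library, and the list's share was at most 8.77e-05% in the IP and 5.79e-05% in total RNA. The 5 markers of other islet cells made up 0.0104% to 0.0149% of IP and 0.0157% to 0.0192% of total RNA counts. Stromal, endothelial and immune markers, 7 genes that all had reads, made up 0.000560% to 0.000799% of IP and 0.000351% to 0.000499% of total RNA counts. Each level is an average over the lysed cells, in which fewer cells with a transcript and less of it per cell cannot be told apart. Both groups were made from Min6 lysate. This bears on the levels, and whether it also bears on the comparison of IP with total RNA was not tested.

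Of the 10 Klf and Sp mRNAs, 8 were enriched in the hnRNPK IP, 0 were depleted, and Klf10 and Sp3 did not pass. Enriched and depleted mean a Benjamini-Hochberg adjusted p under 0.05 over all tested genes in edgeR's quasi-likelihood test. Over all tested genes, 28.9% were enriched and 33.6% depleted. Among the 9158 protein-coding genes with at least 10 CPM (read counts scaled to library size with TMM factors) on average, which like these 10 were well measured, 40% were enriched and 40.3% depleted. At an unadjusted p under 0.05 the depleted count was 1, which was Sp3. DESeq2 gave 8 enriched and 0 depleted members, against 31.4% and 33.8% of all genes. With limma-voom the members' counts were 8 and 1, against 29.3% and 36.1%. The median log2 fold change of the 10, IP minus total RNA, was 0.93, against −0.07 over all tested genes. The IP and total RNA libraries did not overlap for 8 members that were higher in the IP and for 1 that was lower, whereas 32.2% of all genes showed the former pattern and 39.3% the latter.

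**Figure D1:**
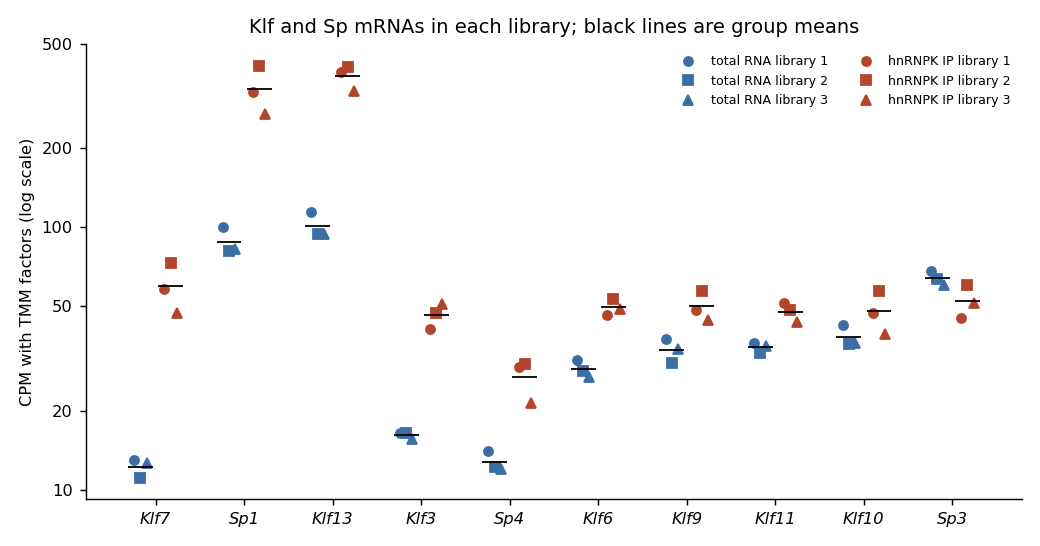
Level of each member in each library in CPM with TMM factors, on a log scale, with members ordered by fold change. Blue symbols are total RNA and red symbols hnRNPK IP, symbol shapes give the library number, and black lines are means of 3 libraries. Klf7, Sp1, Klf13 and Klf3 show the widest gaps between the groups, Klf10 overlaps, and Sp3 is lower in each IP library than in each total RNA library.

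The fold changes compare shares of each library and carry no absolute amount. Scaling by library totals alone shifted the median of all genes by −0.43 on the log2 scale and gave 3447 enriched (20.4%) and 7278 depleted (43%) genes in place of 4892 and 5680. Under that scaling 6 of the 10 members stayed enriched, Klf9 and Klf11 were no longer called, and Sp3 was called depleted at −0.73. Klf10 then lay at −0.11, on the other side of 0 and without a call.

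Several other settings of the test left the members' counts closer to the first ones. The library number as a block together with an offset for exonic length did not. An offset for 3' UTR length, described below, moved them further, to 4 enriched and 1 depleted. Without a filter on low counts 8 members were enriched and 0 depleted, where 17.1% and 21% of all genes were. Halved counts, tried because read pairs may have been counted by mate, also gave 8 and 0, against 32.4% and 36.2%. An offset for GC content gave 8 enriched members and Sp3 depleted, against 28.6% and 34.5%. With the library number as a block the counts were 8 and 0, against 25.9% and 31.7%, and with the block and an offset for exonic length 6 and 1, against 24.4% and 34.3%. When each library was left out, 8 to 9 members were enriched and 0 to 1 depleted. The enriched share of all genes was then 26.4%, 29.3% and 27.1% without IP libraries 1, 2 and 3, and 25.6%, 24.1% and 23.9% without total RNA libraries 1, 2 and 3. The depleted share was 32%, 35.1% and 35% without the IP libraries, and 28%, 26.7% and 26.5% without the total RNA libraries, in the same order.

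Sp1, a broadly expressed activator of housekeeping and regulated genes, was among the members most over-represented in the IP. It had 328, 411 and 271 CPM in IP libraries 1, 2 and 3 and 101, 81.1 and 82.8 CPM in total RNA libraries 1, 2 and 3. Every IP library thus lay far above every total RNA library. The mRNA was 3.81-fold higher in the IP, a log2 fold change of 1.93 ± 0.17 (SE; edgeR, adjusted p = 2.85e-05). The gene lies on chromosome 15 (102406143 to 102436404, plus strand, GRCm38), and its mRNA model has 6 exons.

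Sp3, which binds the same sites as Sp1 and can activate or repress, did not share that enrichment. It had 45.3, 60.1 and 51.6 CPM in the IP libraries and 68.4, 63.5 and 60.6 CPM in the total RNA libraries. The highest IP library lay just under the lowest total RNA library. The log2 fold change, −0.29 ± 0.12, did not pass (edgeR, adjusted p = 0.0714). Without IP library 2, the highest of the IP libraries, Sp3 was called depleted at −0.40 (adjusted p = 0.0164, edgeR; range over all alternatives 0.00118 to 0.268). Sp3 lies on chromosome 2 (72936427 to 72980446, minus strand) and has 7 exons.

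Sp4, the member of the trio best known from neurons, had the lowest CPM of the 10 in the IP. Its levels were 29.5, 30.2 and 21.4 CPM in the IP libraries and 14.1, 12.2 and 12.1 CPM in the total RNA libraries. It was 2.11-fold higher in the IP, with no overlap between the groups (log2 fold change 1.08 ± 0.17, edgeR, adjusted p = 0.000786). Sp4 lies on chromosome 12 (118234933 to 118301440, minus strand).

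Among the activating Klf genes, Klf7 had the highest fold change of the 10 members and Klf6 an intermediate one. Klf7, known for its part in neuron differentiation, had 58.5, 73.5 and 47.2 CPM in the IP libraries and 13.0, 11.1 and 12.7 CPM in the total RNA libraries. It was 4.87-fold higher in the IP (log2 fold change 2.29 ± 0.18, edgeR, adjusted p = 1.73e-05), and its value exceeded that of 96.2% of all tested genes or equalled it. Klf7 lies on chromosome 1 (64029447 to 64122282, minus strand). The annotated lincRNA Gm26649 runs on the opposite strand over 3196 bases, 39.3% of the exonic length of Klf7, and had 0 counts in all 6 libraries. Whether reads in that stretch were counted for Klf7 depends on the strand setting of the counting, for which the sources used here give nothing.

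Klf6, an immediate early gene induced by injury and serum, had 46.5, 53.5 and 49.0 CPM in the IP libraries. In total RNA libraries 1, 2 and 3 it had 31.3, 28.5 and 26.9 CPM. The groups did not overlap, and the mRNA was 1.72-fold higher in the IP (log2 fold change 0.78 ± 0.11, edgeR, adjusted p = 0.000408). Klf6 lies on chromosome 13 (5861482 to 5870394, plus strand).

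Klf3, the CtBP-dependent repressor, was nearly constant in total RNA, at 16.5, 16.5 and 15.7 CPM. In the IP libraries it had 41.2, 47.1 and 51.0 CPM, each more than any total RNA library. Its mRNA was 2.86-fold higher in the IP (log2 fold change 1.52 ± 0.12, edgeR, adjusted p = 1.92e-05). Klf3 lies on chromosome 5 (64803388 to 64832901, plus strand), and 404 of its exonic bases are shared with Gm20033 on the opposite strand, which had 0 to 13 counts per library.

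The Sin3a-binding branch divided, with Klf13 well above its relatives. Klf13, known from T cell and heart gene control, had 391, 410 and 331 CPM in the IP libraries and 114, 94.8 and 94.2 CPM in the total RNA libraries. It was 3.73-fold higher in the IP (log2 fold change 1.90 ± 0.12, edgeR, adjusted p = 7.03e-06). Klf13 lies on chromosome 7 (63886351 to 63938915, minus strand) and its mRNA model has 2 exons.

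Klf9, a target of glucocorticoid and thyroid hormone receptors, had 48.6, 57.4 and 44.3 CPM in the IP libraries and 37.6, 30.3 and 34.3 CPM in the total RNA libraries. It was 1.47-fold higher in the IP (log2 fold change 0.56 ± 0.14, edgeR, adjusted p = 0.00772). The gap between the groups was small, with IP library 3 at 44.3 CPM and total RNA library 1 at 37.6 CPM. Klf9 lies on chromosome 19 (23141226 to 23168134, plus strand).

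Klf10 and Klf11 were first described as early genes induced by TGF-beta, and they lay close together. Klf11 had 51.5, 48.5 and 43.5 CPM in the IP libraries and 36.3, 33.1 and 35.4 CPM in the total RNA libraries, without overlap. It was 1.37-fold higher in the IP (log2 fold change 0.45 ± 0.11, edgeR, adjusted p = 0.00647). Klf10 had 47.0, 57.4 and 39.4 CPM in the IP libraries and 42.4, 36.0 and 36.1 CPM in the total RNA libraries. Here IP library 3 lay below total RNA library 1, and the log2 fold change of 0.33 ± 0.15 did not pass (edgeR, adjusted p = 0.0989). It was called without IP library 3, at 0.38 (adjusted p = 0.0452, edgeR; range over all alternatives 0.0452 to 0.567). Klf11 lies on chromosome 12 (24651274 to 24662789, plus strand) and Klf10 on chromosome 15 (38291463 to 38300706, minus strand).

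**Figure D2:**
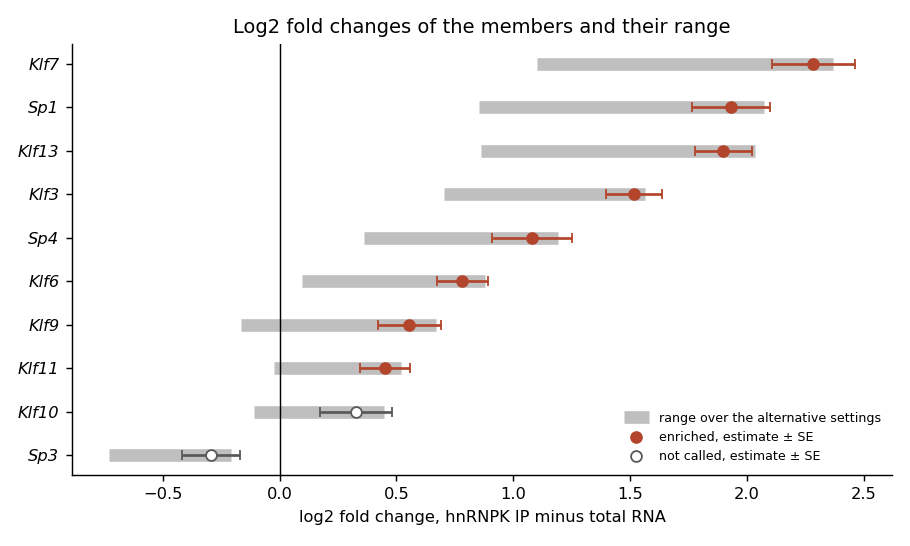
Log2 fold change of each member, hnRNPK IP minus total RNA, with its standard error, and as a grey bar the range over 16 alternative settings. Filled points are enriched and open points were not called. The bars of Klf9, Klf10 and Klf11 cross 0, and that of Sp3 stays below 0, between −0.73 and −0.21.

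The ratio of a pair of mRNAs within a library does not depend on the scaling between libraries, so it shows how related members moved against each other. Ratios were taken for 10 pairs within branches of the family, as log2 of counts plus 0.5. The groups did not overlap for 8 of the 10 pairs. The share of all gene pairs without overlap was not computed. Single genes often did not overlap, with 32.2% higher and 39.3% lower in the IP. Several pairs share a gene, and each difference follows closely from the fold changes given above, so the pairs are not separate observations. With 3 libraries against 3, the smallest exact permutation p is 0.10, which these 8 pairs reached (two-sided, 0.125 after Benjamini-Hochberg adjustment over the 10 pairs), so no pair could pass 0.05.

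Within the Sp trio the counts had the order Sp1, Sp3, Sp4 in both groups, with different ratios. Counts here and in the next paragraph are not divided by length. Per kb of exonic length, Sp3 (13.0 CPM per kb) was above Sp1 (10.7) in total RNA. Counts of Sp1 were 6.38 times those of Sp3 in the IP and 1.37 times in total RNA. On the log2 scale the IP ratio was 2.67 ± 0.25 and the total RNA ratio 0.45 ± 0.10 (SD, n = 3), which differ by 2.22. Sp1 against Sp4 gave 3.63 ± 0.15 and 2.78 ± 0.05 (SD, n = 3 each), and Sp3 against Sp4 0.96 ± 0.33 and 2.33 ± 0.05. The ratio of Sp3 to Sp4 thus was lower in the IP by 1.37 on the log2 scale.

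Klf6 against Klf7 had a mean log2 ratio of −0.24 ± 0.27 over IP libraries and 1.24 ± 0.14 over total RNA libraries (SD, n = 3). Klf6 counts exceeded those of Klf7 in all 3 total RNA libraries and in IP library 3, where the log2 ratio was 0.06. In the Sin3a-binding branch, Klf13 moved against each of its 3 relatives by a similar amount. The log2 ratios to Klf13 differed between the groups by −1.35 for Klf9, −1.58 for Klf10 and −1.45 for Klf11. Among Klf9, Klf10 and Klf11 the differences were 0.24 or less in size. Klf9 against Klf11 (0.10, exact permutation p = 0.50) and Klf10 against Klf11 (−0.13, exact permutation p = 0.40) overlapped between the groups.

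**Figure D3:**
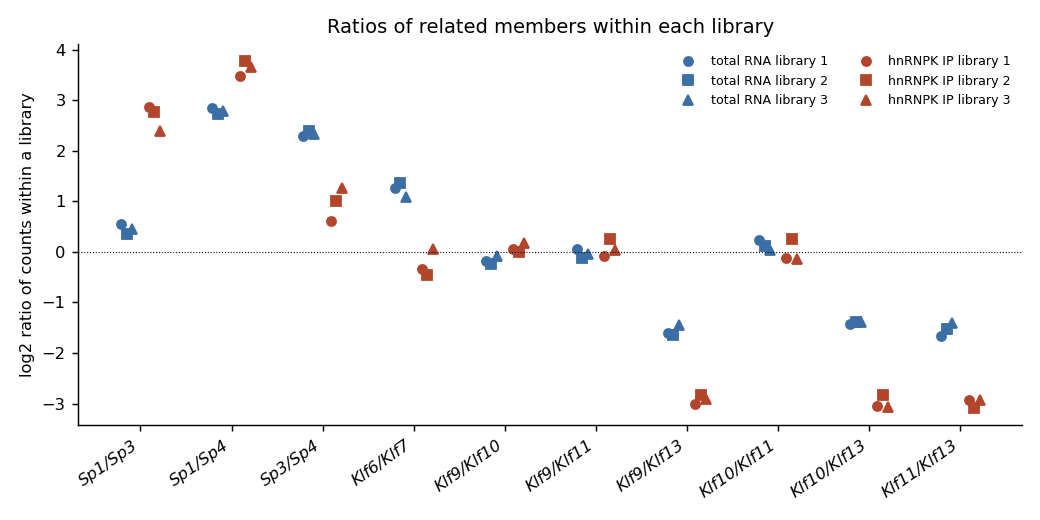
Log2 ratio of the counts of related members within each library, plus 0.5 counts each. Blue symbols are total RNA and red symbols hnRNPK IP, and shapes give the library number. Ratios that involve Sp1 against Sp3, Klf6 against Klf7, or Klf13 are apart, while Klf9 against Klf11 and Klf10 against Klf11 overlap near 0.

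Levels of different genes were compared per kb of exonic length. In total RNA, Klf13 (13.4 ± 1.53 CPM per kb) and Sp3 (13.0 ± 0.799) were highest and overlapped, followed by Sp1 (10.7 ± 1.32), which overlapped with Klf10 (9.14 ± 0.882; SD, n = 3 each). Klf11, Klf9 and Klf6 followed at 8.05 to 6.58 CPM per kb, each overlapping with its neighbour. Sp4 at 2.21, Klf7 at 1.51 and Klf3 at 1.44 CPM per kb were lowest, and of these Klf7 and Klf3 overlapped. In the IP, Klf13 (50.1 ± 5.44 CPM per kb) and Sp1 (40.7 ± 8.51) overlapped with each other and stood apart from the rest. Klf10, Klf6, Klf11, Sp3 and Klf9 lay together at 11.5 to 10.4 CPM per kb, each overlapping with its neighbour. Klf7 at 7.35, Sp4 at 4.68 and Klf3 at 4.13 CPM per kb came last, and Klf7 did not overlap with Sp4. The exonic length of Klf3, all exons of all its transcripts merged, is 11243 bases, and per kb of its longest protein-coding transcript (5221 bases) it reached 8.89 CPM per kb in the IP and 3.11 in total RNA. This scale takes each gene per kb of its own longest protein-coding transcript. On it, the IP mean of Klf3 was above those of Klf7 (7.80 ± 1.72) and Sp4 (4.75 ± 0.852). The gap to Klf7 was smaller than the SD of Klf7. By mean, Klf10 (15.8) and Sp3 (12.5) then followed Klf13 (59.0) and Sp1 (43.4) in the IP. In total RNA the means were 15.8 ± 1.80 for Klf13 and 15.3 ± 0.943 for Sp3. They were 12.5 ± 1.21 for Klf10 and 11.4 ± 1.41 for Sp1 (SD, n = 3 each). In total RNA Klf13 and Sp3 differed by less than either SD, as did Klf10 and Sp1, so their order is not settled. On both scales Klf7 was divided by its full length. Its level is understated, and its rank may be too, if reads over Gm26649 were not counted for it.

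The mRNAs differed widely in their 3' UTRs. Across the 10, the 3' UTR was 1492 to 6266 nt long, with a median of 3218 nt, against a median of 1219 nt in 12884 tested protein-coding genes with at least 100 nt. Klf7 (6266 nt), Sp1 (5372 nt), Klf13 (5157 nt) and Klf3 (3743 nt) had the longest 3' UTRs, and they also had the 4 highest fold changes. Klf10 (1492 nt) and Sp3 (1639 nt) had the shortest, and these were the members that did not pass. Across the 10 genes, the Spearman correlation between log2 fold change and 3' UTR length was 0.95. It was 0.57 across the 19 tested Klf and Sp genes and 0.49 across the 12884 genes. These are descriptions across genes of the same 6 libraries, which are not independent replicates.

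An offset that removes each library's trend with 3' UTR length was added after seeing the data. Genes without an annotated 3' UTR of at least 100 nt were not adjusted for this trend, but count in the shares of all genes. With it, 4 of the 10 members stayed enriched (Klf3, Klf7, Klf13 and Sp1) and Sp3 was depleted, while 27.3% of all genes were enriched and 31.5% depleted. The log2 fold changes were then 1.10 for Klf7, 0.86 for Klf13, 0.85 for Sp1, 0.70 for Klf3 and −0.53 for Sp3 (edgeR, adjusted p = 5.58e-05, 2.89e-05, 2.59e-05, 0.00370 and 0.00395). An offset for the whole exonic length kept all 8 enriched members, against 27.7% of all genes, and called Sp3 depleted at −0.51, against 35.7% of all genes.

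**Figure D4:**
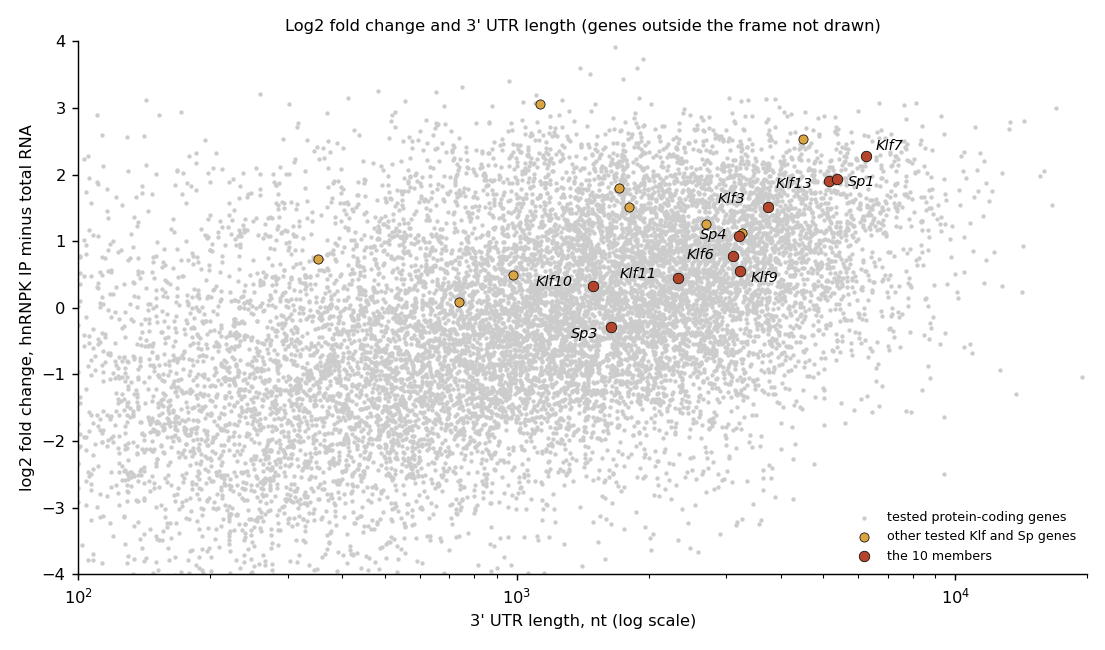
Log2 fold change, hnRNPK IP minus total RNA, against 3' UTR length on a log scale. Grey points are tested protein-coding genes, orange points other tested Klf and Sp genes and red points the 10 members. The members rise from Klf10 and Sp3 at 1492 and 1639 nt to Klf7 at 6266 nt, inside a cloud of all genes that slopes the same way.

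C-rich tetramers were counted in the 3' UTR on the transcript strand, as CCCC, or CCC with a T before it, or CCC with a T or an A after it, with overlapping matches each counted. Klf13 held 203 of them (39.4 per kb), Klf7 145 (23.1 per kb) and Sp1 77 (14.3 per kb). Sp3 held 4 in 1639 nt (2.44 per kb), and 3.66% of the 12884 genes had that density or less. The other members were at 7.16 to 16.3 per kb, below the median of 18.2 per kb over those genes, so enrichment and a high density did not go together throughout. The Spearman correlation between log2 fold change and density was 0.59 across the 10 members, and 0.87 with the number of tetramers, which also grows with length. Across the 12884 genes the corresponding values were 0.27 and 0.60. A tetramer match is a description of the sequence and not a binding site.

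The 30-base window with the most such tetramers in the 3' UTR is shown for the 3 most enriched members, for the members that did not pass, and for Klf6 and Sp4, whose windows go against a simple order. Capitals mark bases inside a tetramer, sequences run 5' to 3' on the mRNA strand, and they come from GENCODE transcripts on GRCm38.
Klf13, chr7:63891262-63891291, minus strand, 15 tetramers: aaCCCCCCTcTCCCCCACCCCACCCCCCCT
Klf7, chr1:64029828-64029857, minus strand, 14 tetramers: TCCCAgCCCCTCCCCTCCCCCCAccTCCCT
Klf6, chr13:5868207-5868236, plus strand, 13 tetramers: cacgttcTCCCCCCTCCCCCCCCCAgatcc
Sp1, chr15:102431345-102431374, plus strand, 10 tetramers: cTCCCAtgatggatTCCCCCCCCCTtttcc
Sp4, chr12:118235722-118235751, minus strand, 3 tetramers: ggcatttcactgctcacTCCCCTtgccacc
Klf10, chr15:38294692-38294721, minus strand, 3 tetramers: gagctctcatcgctgacctgtaTCCCCCgc
Sp3, chr2:72936965-72936994, minus strand, 2 tetramers: caaccattttcctttttttgcttctTCCCT
Klf13, Klf7, Klf6 and Sp1 hold long C-rich runs, although Klf6 had only an intermediate fold change, and the richest window of Sp3 has 2 tetramers. The richest windows of Klf3 and Klf11 held 9 tetramers each, although their fold changes differed, and that of Klf9 held 5. Sp4, which was enriched, has a window no richer than that of Klf10, which did not pass.

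The rest of the family was examined as a list of 16 genes, of which 9 were tested. Of these, edgeR called 7 enriched and 0 depleted, against 28.9% and 33.6% of all tested genes. Among protein-coding genes with at least 10 CPM on average the shares were 40% and 40.3%. The depleted count was also 0 with DESeq2 and with limma-voom, against 33.8% and 36.1%. At p under 0.05 before adjustment it was 0 as well, and no share of all genes was computed there. The median log2 fold change of the 9 was 1.26. Sp2, a less studied Sp factor, had 172, 161 and 125 CPM in the IP libraries and a mean of 18.3 ± 2.38 CPM (SD, n = 3) in total RNA. Its log2 fold change of 3.06 ± 0.16 exceeded that of each of the 10 members (edgeR, adjusted p = 3.20e-06), although its 3' UTR is only 1129 nt long. That 3' UTR held 69 C-rich tetramers, or 61.1 per kb. Klf12, a CtBP-binding relative of Klf3, was at 2.54 ± 0.20, and Klf5, a factor of proliferating epithelia, at 1.80 ± 0.25 with only 3.51 tetramers per kb. Klf16 (1.51 ± 0.12), Sp8 (1.26 ± 0.13), Klf8 (1.12 ± 0.32) and the pluripotency factor Klf4 (0.50 ± 0.15) were also enriched. Klf4 lost its call without IP library 1 (0.33) or total RNA library 1 (0.48) or 3 (0.53) and with the library number as a block (0.49). Klf8 lost its call without total RNA library 2 (0.99), with that block (1.08), with the block and the offset for exonic length (0.83) and with the offset for 3' UTR length (0.37). With library totals alone 5 of the 9 were enriched, against 20.4% of all genes, Klf4 and Klf8 being lost. Klf2 and Klf1, at under 1 CPM in both groups, did not pass. Klf14 and Sp5 had no read in any library, and Klf15, Klf17, Sp6, Sp7 and Sp9 had 2 to 31 counts over all 6 libraries.

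mRNAs of proteins that work with Klf and Sp factors divided, as protein-coding genes in general did. Of 25 corepressor, coactivator and modifier genes, all of them tested, 13 were enriched (52%) and 9 depleted (36%). These shares compare with 40% and 40.3% of protein-coding genes with at least 10 CPM, and 28.9% and 33.6% of all tested genes. The median log2 fold change of the list was 0.52. The acetyltransferase Ep300 (2.18 ± 0.15) and Sap130 of the Sin3 complex (2.16 ± 0.08) were among the highest. Sap30, another Sin3 complex subunit (−3.54 ± 0.68), the deacetylase Hdac2 (−1.95 ± 0.14) and Ctbp1, a partner of Klf3 (−1.09 ± 0.08), were lowest. Sap30 was scarce in the IP, at 0.266, 1.91 and 3.84 CPM, and its value was −4.52 without IP library 3. With library totals alone this list had 9 enriched and 11 depleted genes, against 20.4% and 43% of all genes, and a median of 0.08. With the offset for exonic length it had 10 and 10, against 27.7% and 35.7%, and a median of 0.05.

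Other zinc finger factors of GC-rich DNA had 10 enriched (55.6%) and 2 depleted (11.1%) of 18 tested, against 28.9% and 33.6% of all tested genes. Among protein-coding genes with at least 10 CPM on average, 40% and 40.3% were, although this list also holds genes below that level. The median of the list was 0.82. Egr1, the early growth response factor that competes with Sp1 at some GC boxes (2.64 ± 0.12), Zbtb7a (2.54 ± 0.15) and Vezf1 (1.93 ± 0.10) were highest. Zbtb17, a partner of Myc (−1.73 ± 0.19), and the insulator protein Ctcf (−0.77 ± 0.10) were depleted, and Mzf1 at −0.45 ± 0.23 did not pass. With the offset for 3' UTR length the counts were 8 and 7, against 27.3% and 31.5% of all genes, and the median was 0.27.

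The TGF-beta and Smad pathway, which induces Klf10 and Klf11, had 17 enriched (60.7%) and 4 depleted (14.3%) of 28 tested genes. Of all tested genes 28.9% and 33.6% were, and of protein-coding genes with at least 10 CPM on average 40% and 40.3%. The median of the pathway list was 0.74. The BMP receptors Bmpr2 (2.40 ± 0.22) and Bmpr1a (2.07 ± 0.10) and the signal transducer Smad5 (1.74 ± 0.17) were highest. The Smad target genes Id1 (−2.52 ± 0.37), Id2 (−2.31 ± 0.31) and Id3 (−2.03 ± 0.28) were lowest. With library totals alone the counts were 11 and 6, against 20.4% and 43% of all genes, and the median was 0.30.

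**Figure D5:**
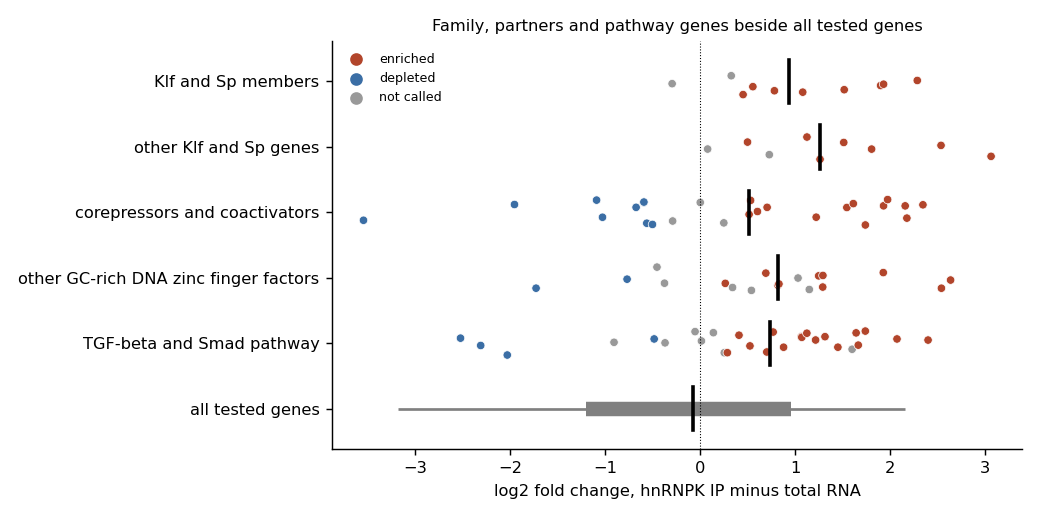
Log2 fold change, hnRNPK IP minus total RNA, of each tested gene in 5 lists, coloured by call, with black bars at list medians. The lowest row gives all 16929 tested genes, where the thick bar spans the quartiles (−1.20 to 0.96) and the thin line the 5th to 95th percentiles. In this edgeR test the Klf and Sp rows, of 10 and 9 genes, hold no depleted gene, against 33.6% of all tested genes. The other lists, in order, hold 9 of 25 (36%), 2 of 18 (11.1%) and 4 of 28 (14.3%). Sp3 was called depleted under some alternative settings.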

How the data were processed

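Each deposited table holds whole-number counts of reads per gene for 1 library, without normalization. TopHat2, featureCounts and the build mm10 are named, per the submitters' processing notes. The sources used here give no versions, annotation release, strand setting or handling of multiply aligned reads. Of 53379 identifiers, 53274 matched GENCODE M21 (GRCm38) without their version suffix and the remaining 105 carried no more than 0.0237% of any library. Lengths come from that release and may differ from the authors' gene models.

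Groups and numbers came from the sample titles. Tests ran in edgeR 4.0.16 under R 4.3.3 (TMM factors, filterByExpr with minimum count 10 and minimum total 15, quasi-likelihood F test on the group, Benjamini-Hochberg over 16929 genes, threshold 0.05). Fold changes are IP minus total RNA ± SE. On simulated data for 16405 genes of this comparison, 100 genes were changed by a log2 size of 1 and 100 by 2. The fit recovered 71.0% and 96.0% of them and called 0.0185% of the unchanged genes. Far more genes were called in the real comparison, so these rates need not hold for it. Alternatives used DESeq2 1.42.0, limma 3.58.1 (voom), other scaling and filters, halved counts (58.6% to 68.7% of counts from 1 to 20 were even), loess offsets (span 0.4) for exonic length, 3' UTR length or GC content, a replicate block, and leaving out each library. Pair ratios used exact permutation tests in scipy 1.17.1.

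The members, lists and tests were chosen with earlier results of these data known. The genes named are the 10 members, all tested relatives, and the 3 highest and 3 lowest of each other list, with the 3 genes nearest to the members with the highest and lowest fold change. A gene that this rule also names is not reported here. The labels do not state separate cultures for the replicates: p-values reflect only how far these samples spread, which may be technical. Replicates differed by more than sampling noise in all pairs (chi-square per degree of freedom 6.40 to 123). Every member had at least 597 counts in each library.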

Additional observations from a re-analysis of the deposited data

How the results depend on the processing

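The 8 enriched members were 8 with DESeq2, limma-voom, no filter on low counts, halved counts and the offsets for exonic length or GC content, 6 with library totals alone, 4 with the offset for 3' UTR length (added after seeing the data), and 8 to 9 when each library was left out. The 0 depleted members became 1, which was Sp3, with library totals alone, limma-voom, the offset for exonic length with or without the replicate block, the offset for GC content and the offset for 3' UTR length, and were 0 to 1 when each library was left out. Log2 fold changes that turned sign were those of Klf10 with library totals alone (−0.11), of Klf9 (−0.16) and Klf11 (−0.026) with the offset for 3' UTR length, of Klf1 with limma-voom (−0.73), with the replicate block (−0.023) and when each library was left out (−0.34, without IP replicate 2, to 1.25), and of Klf2 with library totals alone (−0.35), limma-voom (−0.11), the offset for GC content (−0.066), the replicate block (−0.13) and when each library was left out (−0.57, without IP replicate 1, to 0.44). None of these turned values was called. The causes were not tested. The differences of the 10 pair ratios kept their sign with a prior count of 2 and without any 1 library.

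Same-numbered IP and total RNA libraries showed little shared deviation (correlations of deviations from the group means 0.000874, −0.0709 and 0.120). Not every library correlated best with its own number. With 3 libraries per group such correlations cannot show that pairs are absent. The numbers were not taken as pairs in the first test, and a replicate block was fitted as an alternative. With the replicate block 8 members were enriched and 0 depleted, and 4384 genes were enriched and 5364 depleted over all. With the block and the offset for exonic length 6 members were enriched, against 24.4% of all genes, Klf9 (0.35) and Klf11 (0.33) losing their calls. The block also ended the calls of Klf4 (0.49) and Klf8 (1.08) among the genes named.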

Other observations

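Sin3a and Sin3b, the paralogous scaffolds of the corepressor complex that Klf9, Klf10, Klf11 and Klf13 bind, lay on opposite sides. They were chosen after their values were seen. Sin3a had 116, 125 and 119 CPM in the IP libraries and 56.6, 48.5 and 49.5 CPM in the total RNA libraries, a log2 fold change of 1.22 ± 0.10 (edgeR, adjusted p = 1.93e-05). Sin3b had 58.7, 54.7 and 57.9 CPM in the IP libraries and 87.3, 92.9 and 93.0 CPM in the total RNA libraries, a log2 fold change of −0.67 ± 0.09 (edgeR, adjusted p = 0.000237). In both cases the groups did not overlap.

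Genes with the profile most like that of a member were found by the Euclidean distance of centred log2 CPM over the 6 libraries. Only tested protein-coding genes of established symbol with at least 5 CPM on average were eligible. The distance includes the difference between the groups, so fold changes near that of the member follow from the choice. Nearest to Klf7 were the kinase Mark2 (distance 0.09), Aff3 (0.14) and Parp4 (0.16), with log2 fold changes of 2.25 to 2.29. Nearest to Sp3 were the S6 kinase Rps6kb1 (0.09), Zfp445 (0.09) and Supt16 (0.12), with log2 fold changes of −0.32 to −0.27.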
